A study of Mus musculus with 4 samples.

Results

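The genes described here carry lactate across the cell membrane, interconvert lactate and pyruvate, bring pyruvate into mitochondria, and commit it to oxidation. The set holds 10 of the 50600 gene rows of the deposited table, matched by name, and all 10 passed the filter on low values. Slc16a3 was selected on its deposited values, which were much higher in Myh9 KO than in WT, so its difference is given as a description with no test. The other 9 genes were named for their function, with earlier results of the same libraries known. Expression was measured by RNA-seq of poly(A)-selected RNA in OG2ES, a mouse embryonic stem cell line whose labelled tissue of origin is the inner cell mass. Cells of both groups were kept in mES medium with 2i, 2 kinase inhibitors that keep embryonic stem cells naive, and received no other treatment. The 2 groups were wild type (WT, 2 libraries) and Myh9 KO (2 libraries). Myh9 codes for a heavy chain of non-muscle myosin II, a motor of the actin cortex. The labels do not say how Myh9 was disrupted, how many KO clones were used, or whether the replicates were grown separately. A property of 1 KO clone therefore cannot be told apart from the loss of Myh9, and each p-value reflects only how these libraries scatter, which may be technical.

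Glycolysis ends in pyruvate, which lactate dehydrogenase reduces to lactate while restoring NAD+ for further glycolysis. Monocarboxylate transporters (MCTs) move lactate with a proton across the plasma membrane and MCT1 and MCT4 need the membrane protein basigin to reach it. Pyruvate that is not reduced enters mitochondria through a carrier made of MPC1 and MPC2 and is turned into acetyl-CoA by the pyruvate dehydrogenase complex, which pyruvate dehydrogenase kinases switch off by phosphorylation. Naive mouse embryonic stem cells are known to use both glycolysis and respiration.

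The deposited values were whole numbers that summed to between 992098 and 992317 in each library, close to a per-million scale, and the depth of the libraries is unknown. Whether they are per transcript length is not given in the sources used here, so levels are compared between libraries and not between genes. Myh9 itself, which checks the labels, measured 83 and 100 in the WT libraries, against 9 and 9 in Myh9 KO (difference of log2(value + 1) -3.20, SE 0.12, limma adjusted p = 0.00675, but 0.0675 and 0.0709 without Myh9 KO 1 and Myh9 KO 2). Markers of pluripotent cells were present, with summed values of 4829 and 4991 over 8 genes in WT, against 4929 and 4962 in Myh9 KO. Pou5f1 makes up most of that sum, and 1 of the 8 genes was called: Sox2 was 177 and 183 in WT, against 126 and 121 in Myh9 KO (log2 difference -0.54, SE 0.03, limma adjusted p = 0.0178). With random decimals alone Zfp42 and Klf4 passed as higher and Tfcp2l1 as lower (adjusted p = 0.00311, 0.0468 and 0.0446). Of 10 markers of feeder fibroblasts, 7 were listed at 0 in every library, among them Col1a1, Col1a2 and Dcn, and 3 were tested. Fstl1 was called lower (50 and 52, against 35 and 34, limma adjusted p = 0.0159), while Thy1 (3 and 4, against 4 and 5) and Pdgfrb (1 and 0, against 1 and 2) were not called, so the lower sum of the list in Myh9 KO (54 and 56, against 40 and 41) came from Fstl1. Endoderm markers summed to 1 and 2 in WT, against 5 and 6 in Myh9 KO, nearly all of it Gata4, with 4 of 6 at 0 throughout. Trophoblast markers summed to 22 and 23 in WT and to 27 and 25 in Myh9 KO (3 of 6 at 0), and neural markers to 106 and 108 and to 94 and 90 (2 of 5 at 0). The part of such cells in the results below was not tested. In bulk RNA a change in the share of a cell type and a change per cell cannot be told apart.

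Of the 9 tested genes, 2 rose in Myh9 KO cells (Ldha and Ldhb), 2 fell (Mpc1 and Mpc2), and 5 were not called (Slc16a1, Bsg, Pdha1, Pdk1 and Pdk3). A gene was called where limma on log2(value + 1) gave an adjusted p under 0.05 over all 11231 tested genes and a second fit, with random decimals added to the whole numbers, called it in the same direction. Of all tested genes, 5.12% were called higher and 5.8% lower by this rule. The median difference of the 9 genes was 0.06 on the log2 scale, beside 0 for all tested genes. In each of the 9 genes the 2 groups did not overlap, with 5 higher and 4 lower in Myh9 KO. Groups did not overlap in the higher direction for 26.2% of all tested genes, and in the lower direction for 27.3%. With 1 library left out, Ldha was still called in each of the 4 cases and the other 3 were called in none, each such fit having 1 library in one of the groups.

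**Figure D1:**
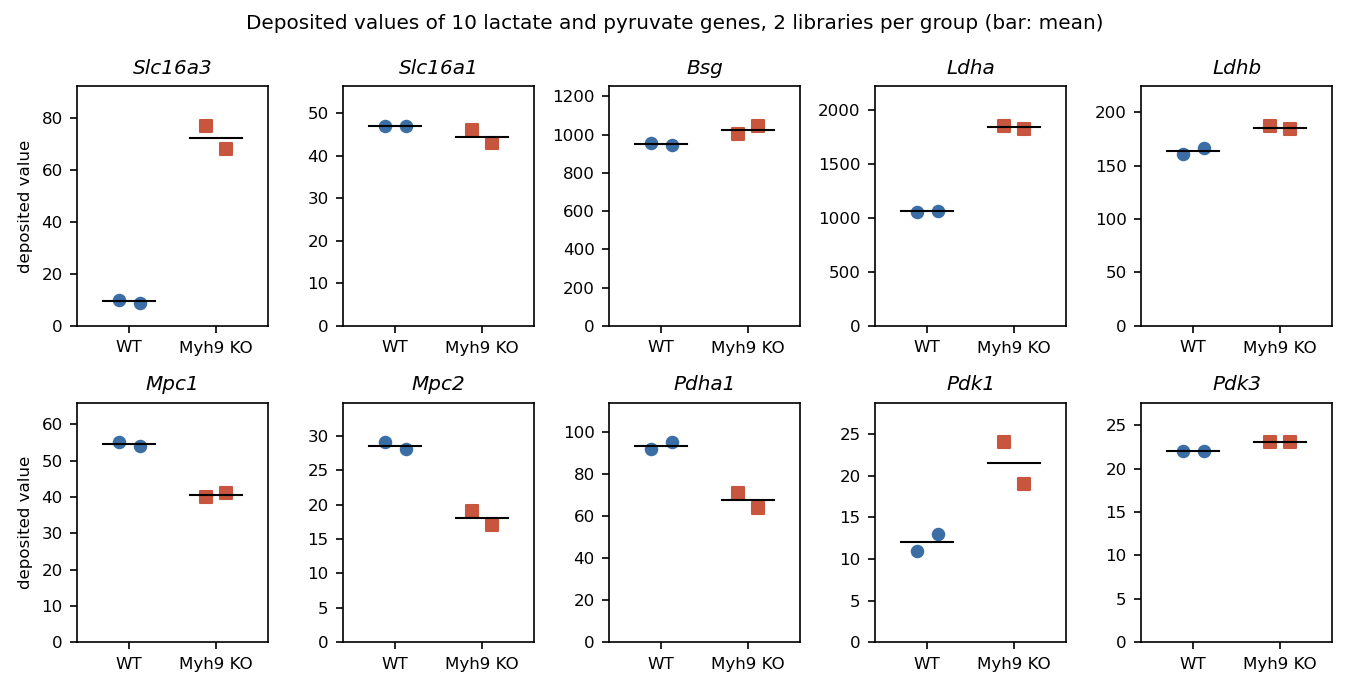
Deposited values (y axis, starting at 0, a separate scale for each gene) in the 2 WT libraries (circles) and the 2 Myh9 KO libraries (squares), with a bar at each group's mean. Slc16a3 went from 10 and 9 to 77 and 68, whereas Slc16a1 stayed between 43 and 47 in all 4 libraries.

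Slc16a3 codes for MCT4, the transporter known for exporting lactate from strongly glycolytic cells (ENSMUSG00000025161, mm10 chr11:120948480-120960868, plus strand). Its values were 10 and 9 in the WT libraries, against 77 and 68 in Myh9 KO. Both Myh9 KO libraries thus lay far above both WT libraries, and the 2 libraries of a group lay close together. The means were 9.5 ± 0.71 and 72.5 ± 6.4 (SD, n = 2), a ratio of 7.63. On the log2(value + 1) scale, which understates changes of low values, the difference was 2.81 (SE 0.10). It ran from 2.69 to 2.89 over 15 alternative settings, including each library left out. None of the 50-base words of its longest transcript occurs in another gene, and no other annotated gene overlaps it. The median difference of the 952 tested genes on chromosome 11 was 0.

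Slc16a1 codes for MCT1, the widely expressed transporter that moves lactate in either direction (ENSMUSG00000032902, chr3:104638668-104658462). It measured 47 and 47 in the WT libraries, against 46 and 43 in Myh9 KO, a difference that did not pass the test (log2 difference -0.08, SE 0.04, adjusted p = 0.361). The 95% confidence interval of its fold change ran from 0.853 to 1.05. The sign of this small difference turned positive (0.04) when the trend on GC content and transcript length was removed. Bsg, the gene of basigin, the chaperone of both transporters (ENSMUSG00000023175, chr10:79704491-79711969), measured 954 and 944 in the WT libraries, against 1005 and 1045 in Myh9 KO. The groups did not overlap, and the difference of 0.11 (SE 0.03) did not pass the test (adjusted p = 0.118, fold interval 1.01 to 1.15). Tested genes with a GC content like that of Bsg (56.1% to 76.3%) had a median difference of 0.11.

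The difference of log2 values between Slc16a3 and Slc16a1 within a library was -2.13 and -2.26 in WT, against 0.73 and 0.65 in Myh9 KO, a shift of 2.88 between groups that is given without a test. Since the values may not be per length, only the shift can be read, not the sign in either group. Of the other carriers and chaperones fixed for this comparison, Slc16a7, Slc16a8, Slc5a8 and Slc5a12 were listed at 0 in every library. A listed 0 does not show absence here, because genes that dividing cells usually express, such as Mki67, Rock1 and Rock2, were listed at 0 as well. Embigin (Emb), an alternative chaperone of MCTs, stood at 24 and 23 in WT, then (the order used from here on) at 20 and 17 in Myh9 KO (adjusted p = 0.166). Neuroplastin (Nptn), a relative of basigin, stood at 50 and 45, then 35 and 34 (adjusted p = 0.0626, and 0.00754 with random decimals), and its exons overlap Rec114 on the other strand, which stood at 18 and 22, then 14 and 13.

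The promoters of the carrier pair are shown because of this shift. Each run is the 250 bases before a RefSeq transcription start (GRCm38.p6), 5′ to 3′ on the gene's plus strand, in lower case with each ACGTG, on either strand, in capitals. ACGTG is a form of the core of the element bound by hypoxia-inducible factors (HIF). It is also contained in CACGTG, the E-box bound by MYC and related factors. The other form of the HIF core, GCGTG, was not searched for, so a window without ACGTG may still hold a HIF core.
Slc16a3, chr11:120948817-120949066: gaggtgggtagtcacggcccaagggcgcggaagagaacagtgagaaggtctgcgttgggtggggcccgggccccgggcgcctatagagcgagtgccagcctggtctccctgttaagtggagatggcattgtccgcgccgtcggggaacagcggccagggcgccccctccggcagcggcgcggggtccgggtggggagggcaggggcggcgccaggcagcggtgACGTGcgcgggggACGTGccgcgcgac
Slc16a1, chr3:104638414-104638663: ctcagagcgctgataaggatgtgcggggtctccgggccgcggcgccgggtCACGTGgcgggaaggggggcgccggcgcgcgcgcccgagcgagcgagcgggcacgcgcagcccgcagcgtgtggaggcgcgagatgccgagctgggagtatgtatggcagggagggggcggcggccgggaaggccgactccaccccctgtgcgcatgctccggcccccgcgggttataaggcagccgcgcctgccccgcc
The Slc16a3 window held 2 ACGTG, with first bases 27 and 14 bases before the start, neither within CACGTG. This window lies inside the annotated Slc16a3 gene, whose first annotated base is further upstream, and 14 of its bases are in annotated exons. The Slc16a1 window held 1 CACGTG, which is read as ACGTG on both strands, 200 bases before the start.

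Ldha codes for the A (muscle type) subunit of lactate dehydrogenase, which favours the reduction of pyruvate to lactate (ENSMUSG00000063229, chr7:46841475-46855627). It measured 1054 and 1069 in the WT libraries, against 1853 and 1826 in Myh9 KO. The 2 libraries of each group lay close together and the groups far apart. Ldha rose by 0.79 on the log2 scale (SE 0.01, a 1.73-fold change with a 95% interval of 1.67 to 1.80, adjusted p = 0.00201). With each library left out in turn, the larger of the adjusted p from both fits ran from 0.0227 to 0.0286. Of its 50-base words, 16.7% occur in other genes (14 in all), so part of its value may be shared with them. The medians of the tested genes on chromosome 7 and in its class of GC content were both 0.

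Ldhb, the B (heart type) subunit, which favours the oxidation of lactate (ENSMUSG00000030246, chr6:142490249-142507957, minus strand), rose from 161 and 166 to 187 and 184. The difference of 0.18 (SE 0.02) was a 1.13-fold change with an interval of 1.07 to 1.20, at an adjusted p of 0.0498 by limma and 0.0389 with random decimals. It lay just inside the threshold and passed it in 6 of 15 alternatives. Leaving out WT 1, then WT 2, then Myh9 KO 1, then Myh9 KO 2 gave a larger adjusted p of 0.224, 0.124, 0.194 and 0.19. Ldhb lies on chromosome 6, whose 555 tested genes had a median difference of 0.45 (169 called higher and 14 lower), so Ldhb was below the median of its own chromosome. Of its 50-base words 27.0% occur in the pseudogene Gm5514, which was listed at 0 in every library.

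Within a library, log2 Ldha minus log2 Ldhb was 2.70 and 2.68 in WT, against 3.30 and 3.30 in Myh9 KO. The balance shifted towards Ldha by 0.61 (exact permutation test, 2-sided, p = 0.333, the smallest value that 2 against 2 libraries can give). Their promoters, on the gene's own strand and marked in the same way, are shown for the same comparison.
Ldha, chr7:46845554-46845803, plus strand: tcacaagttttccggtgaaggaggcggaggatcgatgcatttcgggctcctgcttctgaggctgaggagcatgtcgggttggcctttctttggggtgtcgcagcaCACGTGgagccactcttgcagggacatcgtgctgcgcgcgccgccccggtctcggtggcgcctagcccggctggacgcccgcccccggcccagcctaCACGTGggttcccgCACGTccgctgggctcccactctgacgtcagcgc
Ldhb, chr6:142507958-142508207, minus strand: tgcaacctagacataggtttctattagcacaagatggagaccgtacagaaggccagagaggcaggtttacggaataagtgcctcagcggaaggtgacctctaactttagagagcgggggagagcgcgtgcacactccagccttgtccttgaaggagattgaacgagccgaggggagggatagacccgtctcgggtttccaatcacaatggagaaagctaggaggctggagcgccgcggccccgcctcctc
The Ldha window held 2 CACGTG, at 145 and 48 bases before the start, and a further ACGTG on the other strand at 34 bases. It lies inside the annotated Ldha gene, whose first annotated base is further upstream. A second Ldha window and the Ldhb window held no ACGTG. Windows were found for 9 of the 10 genes (12 windows), and ACGTG was present in 4 of the 12, a window each of Slc16a3, Slc16a1, Ldha and Pdk3. Of 32841 mouse promoter windows of this length, not matched to these genes for GC content, 16.6% held ACGTG and 6.0% held CACGTG. Such a match describes the letters of the window only.

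Other enzymes around lactate gave 1 call among 3 tested. Glo1, the glyoxalase that starts the conversion of methylglyoxal to D-lactate, fell from 454 and 466 to 281 and 265 (log2 difference -0.75, SE 0.04, limma adjusted p 0.0138, but 0.105 and 0.111 without WT 1 and WT 2). Its exons overlap 1700097N02Rik on the same strand and AC165962.3 and AC165962.4 on the other strand. Of the 50-base words of Glo1 10.4% occur in other genes. Gm13443, the gene that shares most of them, was also called lower, with 197 and 191 in WT, against 81 and 80 in Myh9 KO (log2 difference -1.26, limma adjusted p = 0.00196). Whether reads were divided between these genes was not tested, so the value of Glo1 is uncertain. Hagh, which completes that route, stood at 42 and 40, then 42 and 41, and Ldhd, the D-lactate dehydrogenase, at 1 and 1, then 2 and 1. Neither was called (adjusted p = 0.791 and 0.489).

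**Figure D2:**
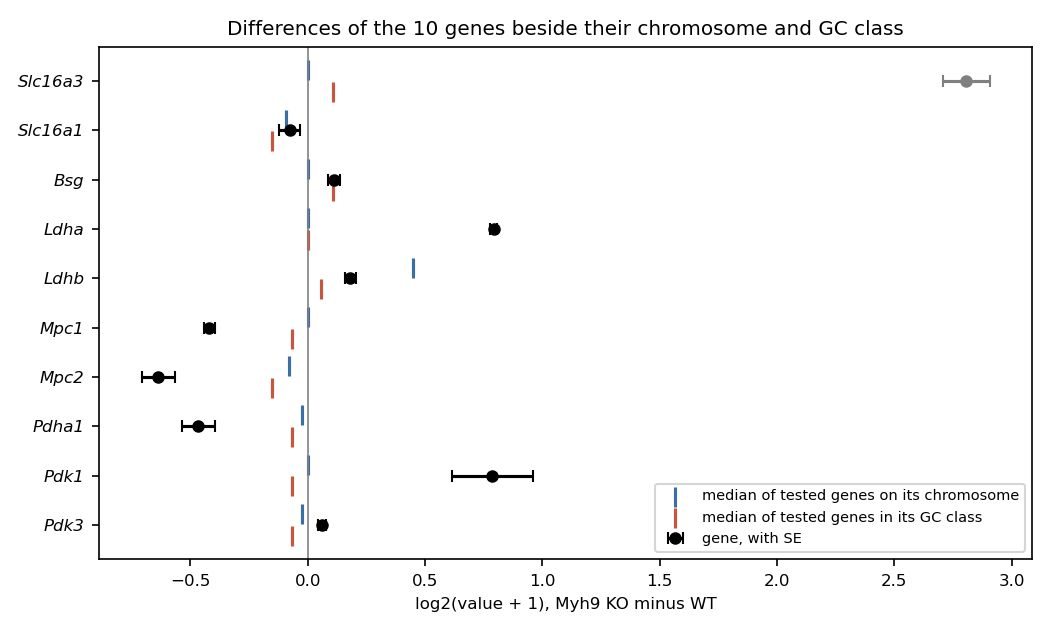
Difference of log2(value + 1), Myh9 KO minus WT (x axis), with its SE for each gene (the grey point is Slc16a3, chosen for its rise), beside the median of tested genes on the same chromosome (upper ticks) and in the same of 5 GC content classes (lower ticks). Ldhb, at 0.18, lies below the chromosome 6 median of 0.45, and Mpc2, at -0.64, lies below both of its medians.

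Both subunits of the mitochondrial pyruvate carrier fell. Mpc1 (ENSMUSG00000023861, chr17:8282904-8297661) went from 55 and 54 in WT to 40 and 41 in Myh9 KO, a log2 difference of -0.42 (SE 0.02, fold interval 0.707 to 0.791, adjusted p = 0.0139). Mpc2 (ENSMUSG00000026568, chr1:165460637-165481214) went from 29 and 28 to 19 and 17, a log2 difference of -0.64 (SE 0.07, fold interval 0.541 to 0.765, adjusted p = 0.0408). For both genes each Myh9 KO library lay below each WT library by more than the spread within a group. Leaving out WT 1, then WT 2, then Myh9 KO 1, then Myh9 KO 2 gave a larger adjusted p of 0.0871, 0.0825, 0.0568 and 0.0543 for Mpc1 and 0.214, 0.203, 0.0575 and 0.0759 for Mpc2. The differences then ran from -0.44 to -0.40 and from -0.71 to -0.56.

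The difference between groups followed GC content. With the tested genes cut into 5 equal classes by GC content, the median was -0.15 in the lowest class (31% to 45.0% GC), which holds Mpc2 (43.2%), and -0.07 in the next, which holds Mpc1 (48.0%), against 0.11 in the highest class. That lowest class also had a median of -0.14 between the 2 Myh9 KO libraries (Myh9 KO 2 minus Myh9 KO 1), and of 0 between the WT libraries. Once the trend on GC content and length was taken out, Mpc1 differed by -0.31 (larger adjusted p = 0.0263) and Mpc2 by -0.51 (0.0125). Both differences were smaller and still passed, in a setting that called more genes over the whole table (1149 higher and 1279 lower). With a term for replicate number added to that fit, Mpc1 missed the threshold (larger adjusted p = 0.0505) and Mpc2 passed it (0.0288). The part of GC content in these falls was not tested. Of the 50-base words of Mpc1 29.6% occur in other genes, the pseudogene Mpc1-ps among them, which was listed at 0 and 1 in WT, against 0 and 3 in Myh9 KO. For Mpc2 the share was 0.23%.

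Pdha1 codes for the catalytic E1 alpha subunit of pyruvate dehydrogenase, the target of the inhibitory kinases (ENSMUSG00000031299, chrX:160122209-160138413, minus strand). It measured 92 and 95 in the WT libraries, against 71 and 64 in Myh9 KO. The groups did not overlap, but the difference of -0.47 (SE 0.07) missed the threshold in limma (adjusted p = 0.0597) and passed it with random decimals (0.00303). Once the trend on GC content and length was taken out it passed in both fits (-0.37, larger adjusted p = 0.00693). Its exons overlap Map3k15 on the other strand, which was listed at 0 in every library. Of the other parts of the complex and its lipoylation enzymes, 0 of 7 tested were called (1 at an unadjusted limma p under 0.05, and 1 with random decimals alone), with a median of -0.09. Pdhb, the E1 beta subunit that pairs with the product of Pdha1, stood at 191 and 183, then 155 and 148 (log2 difference -0.30, SE 0.04, adjusted p = 0.0517, and 0.0067 with random decimals). Dlat, the E2 core, stood at 42 and 40, then 41 and 29, with the Myh9 KO libraries apart from each other (adjusted p = 0.489). Dld, the E3 subunit, stood at 8 and 9, then 9 and 7, and Pdhx, the E3-binding protein, at 21 and 21, then 25 and 20. The testis form Pdha2 was listed at 0 throughout.

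Pdk1 codes for a kinase that switches the complex off (ENSMUSG00000006494, chr2:71873224-71903858). It measured 11 and 13 in the WT libraries, against 24 and 19 in Myh9 KO. Both Myh9 KO libraries lay above both WT libraries, with the largest SE of the 10 genes on the log2 scale. The log2 difference of 0.79 (SE 0.17) was close to that of Ldha. It missed the threshold in limma (adjusted p = 0.104, fold interval 1.14 to 2.61) and passed with random decimals (0.00725). This difference passed in both fits once the trend on GC content and length was taken out (0.84, larger adjusted p = 0.0103). It ran from 0.63 to 0.95 with 1 library left out, where the larger adjusted p was between 0.192 and 0.347. Pdk3, a kinase of the same family (ENSMUSG00000035232, chrX:93764607-93832201, minus strand), stood at 22 and 22, then 23 and 23 (difference 0.06, SE 0.02, adjusted p = 0.147, and 0.669 with random decimals). Its fold interval, from 1.00 to 1.09, rests on replicates with equal whole numbers, which leave no spread of their own. Pdk2 stood at 4 and 3, then 4 and 4, and Pdk4 was listed at 0 in every library. The phosphatase Pdp2, which switches the complex on, and the regulatory subunit Pdpr were at 15 and at 7 in every library, and the phosphatase Pdp1 was at 0 or 1. Limma called 0 of the 3 tested kinases and phosphatases outside the 10 genes (0 at an unadjusted p under 0.05, and 0 with random decimals).

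**Figure D3:**
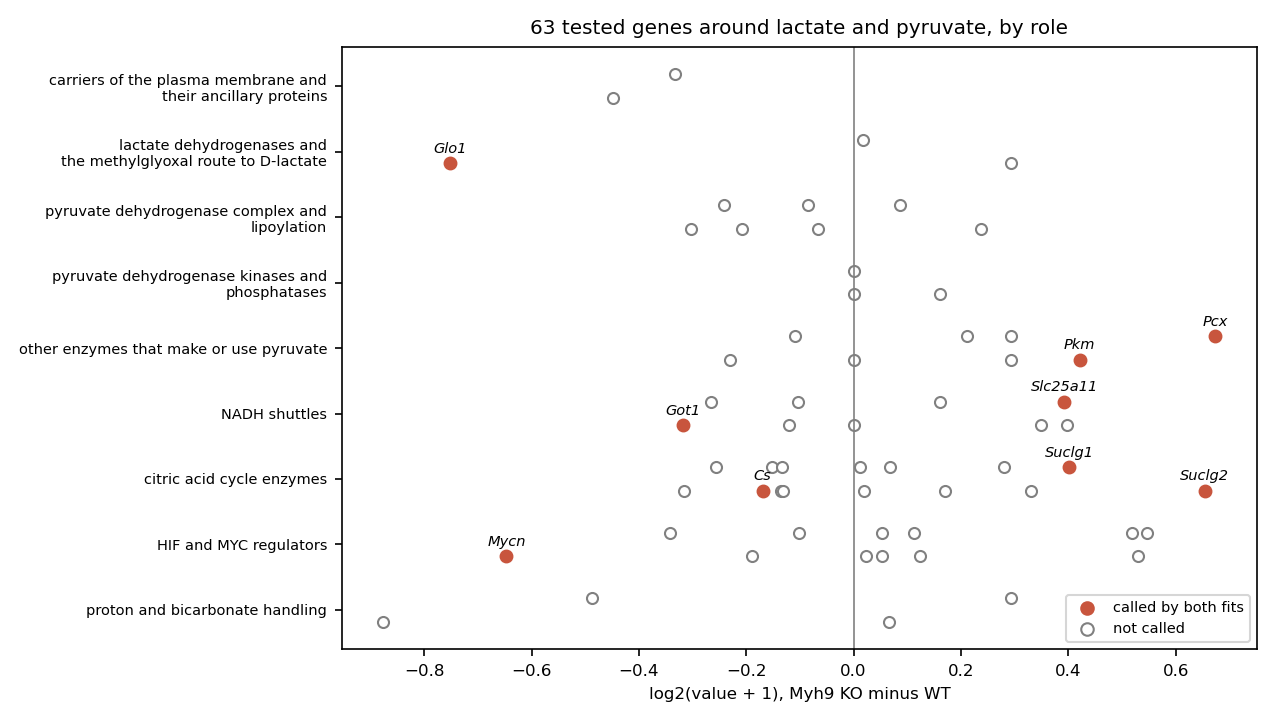
Difference of log2(value + 1), Myh9 KO minus WT (x axis), for the 63 tested genes around the 10 described here, in rows by role, with filled points for genes called by both fits. Filled points are 5 higher and 4 lower, and they lie in the rows of lactate enzymes, pyruvate enzymes, NADH shuttles, the citric acid cycle and the HIF and MYC regulators.

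A wider set of 78 genes was listed by function around these steps. Of these, 63 passed the filter and 11 of the rest were listed at 0 in all 4 libraries. Both fits called 5 higher and 4 lower and left 54 uncalled, beside 5.12% and 5.8% of all tested genes, and the median difference was 0.01. With random decimals alone 11 were higher and 9 lower, and with 1 library left out (any of the 4) 1 to 2 were higher and 0 to 2 lower. Outside chromosomes 6 and 8, whose genes had medians of 0.45 and 0.21, there were 53 tested genes, of which 3 were higher and 4 lower.

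Of the enzymes that make or use pyruvate, 2 of 8 tested rose. Pkm, the pyruvate kinase gene, rose from 2459 and 2501 in WT to 3256 and 3389 in Myh9 KO (log2 difference 0.42, SE 0.03, adjusted p = 0.0187). Of its 50-base words 34.4% occur in other genes, and its exons overlap Gm49759 on the same strand. Pcx, the carboxylase that feeds pyruvate into the citric acid cycle as oxaloacetate, rose from 19 and 21 to 31 and 34 (log2 difference 0.67, SE 0.08, adjusted p = 0.0465). Pkm was lost without WT 1 (larger adjusted p = 0.134), WT 2 (0.127) or Myh9 KO 2 (0.0539), and Pcx whichever library was left out (0.146 to 0.189). The malic enzyme gene Me1 (28 and 27, then 32 and 32) passed limma (adjusted p = 0.0486) but not random decimals (0.118). Alanine transaminase genes Gpt (3 and 4, then 4 and 5) and Gpt2 (36 and 37, then 32 and 30) were not called, and Pck1 and Me3 were listed at 0 in every library.

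The NADH shuttles, which carry cytosolic reducing power into mitochondria as an alternative to making lactate, had 1 gene that rose and 1 that fell among 9 tested. Got1, the cytosolic aspartate transaminase, fell from 234 and 239 to 193 and 186 (log2 difference -0.32, SE 0.03, adjusted p = 0.0278), and Slc25a11, the malate and oxoglutarate carrier, rose from 87 and 94 to 118 and 120 (log2 difference 0.39, SE 0.05, adjusted p = 0.0491). Both calls were lost whichever of the 4 libraries was left out, at a larger adjusted p of 0.0746 to 0.163 and of 0.0589 to 0.231. Slc25a11 overlaps Rnf167 on the other strand, which stood at 65 and 65, then 69 and 72 (adjusted p = 0.126). The other 7 tested shuttle genes were not called, Mdh1 (131 and 135, then 106 and 115, adjusted p = 0.0977) and Got2 (304 and 289, then 364 and 392, adjusted p = 0.0693, on chromosome 8) among them, and Gpd1 was 1 in both WT libraries but listed at 0 in both Myh9 KO libraries.

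In the citric acid cycle, which takes up the acetyl-CoA that pyruvate dehydrogenase makes, 2 of 15 genes rose and 1 fell. Cs, the citrate synthase gene, fell from 217 and 223 to 197 and 194 (log2 difference -0.17, SE 0.02, adjusted p = 0.0484). Suclg1 and Suclg2, subunits of succinyl-CoA ligase, rose from 143 and 147 to 186 and 198 (log2 difference 0.40, SE 0.04, adjusted p = 0.0384) and from 39 and 41 to 64 and 63 (log2 difference 0.65, SE 0.03, adjusted p = 0.013). Both of these lie on chromosome 6, with its median of 0.45. Whichever library was left out, Cs (larger adjusted p from 0.144 to 0.24) and Suclg1 (0.0739 to 0.206) were lost, and Suclg2 was lost without Myh9 KO 1 (0.0898) or Myh9 KO 2 (0.0916). The median of the 15 genes was 0.01.

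HIF is known to act on Slc16a3, Ldha and Pdk1, and MYC on Ldha and Slc16a1, which is not a full list of their targets. Of these genes, Slc16a3 was selected for its rise, Ldha was called, and Pdk1 and Slc16a1 were not called. Whether HIF or MYC had a part in any difference was not tested. The list of both factors with their partners and regulators gave 1 call among 12. Hif1a, the oxygen-regulated subunit of HIF-1, measured 9 and 9 in the WT libraries, against 10 and 6 in Myh9 KO (adjusted p = 0.698, fold interval 0.44 to 1.75). HIF-1 is controlled mainly through the stability of this protein, which these data do not measure. Epas1, Arnt, Egln1, Egln2, Hif1an, Max and Mxi1 were not called. Nor were Egln3 (2 and 3, then 4 and 4, adjusted p = 0.184) and Vhl, on chromosome 6 (19 and 18, then 29 and 25, adjusted p = 0.0845, and 0.0123 with random decimals). Mycn fell from 88 and 90 to 58 and 55 (log2 difference -0.65, SE 0.04, adjusted p = 0.0151), a call lost without WT 1 (0.109) or WT 2 (0.115). Myc stood at 26 and 26, then 36 and 41 (log2 difference 0.55, SE 0.08, adjusted p = 0.0602, and 0.00513 with random decimals).

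Lactate leaves the cell with a proton, and of 8 genes of proton and bicarbonate handling 4 were tested and limma called 0 (2 at an unadjusted p under 0.05, and 2 with random decimals). Car2, a cytosolic carbonic anhydrase, stood at 27 and 31, then 13 and 18 (log2 difference -0.88, SE 0.21, adjusted p = 0.118, and 0.00509 with random decimals). Slc4a2, an anion exchanger whose exons overlap Fastk, stood at 19 and 21, then 13 and 15 (adjusted p = 0.103, and 0.025 with random decimals). Fastk, on the other strand, shares some of its 50-base words and stood at 88 and 83, then 66 and 75 (adjusted p = 0.174, and 0.04 with random decimals). The membrane carbonic anhydrases Car9, Car12 and Car14 were listed at 0 in every library, and Car4 in all but Myh9 KO 2, where it was 1.

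The 5 named protein-coding genes whose profile over the 4 libraries was nearest to that of Slc16a3, by Euclidean distance of log2(value + 1) centred on the WT mean, were Hal, Mt4, Ndufa4l2, Thpo and Pdlim4, at distances of 0.31, 0.59, 0.73, 0.79 and 0.90. Because Slc16a3 was selected for that profile, its nearest genes were bound to be higher in Myh9 KO. Unlike Slc16a3 each was listed at 0 in both WT libraries, and so passed the filter on low values only through Myh9 KO. In Myh9 KO their values were 8 and 6 for Hal (histidine ammonia-lyase), 4 and 6 for Mt4 (a metallothionein) and 7 and 3 for Ndufa4l2 (a mitochondrial protein). They were 5 and 3 for Thpo (thrombopoietin) and 3 and 6 for Pdlim4 (an actin-associated adaptor). At such low values the likeness is set in part by the pseudocount of 1, and shared control with Slc16a3 was not tested.

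**Figure D4:**
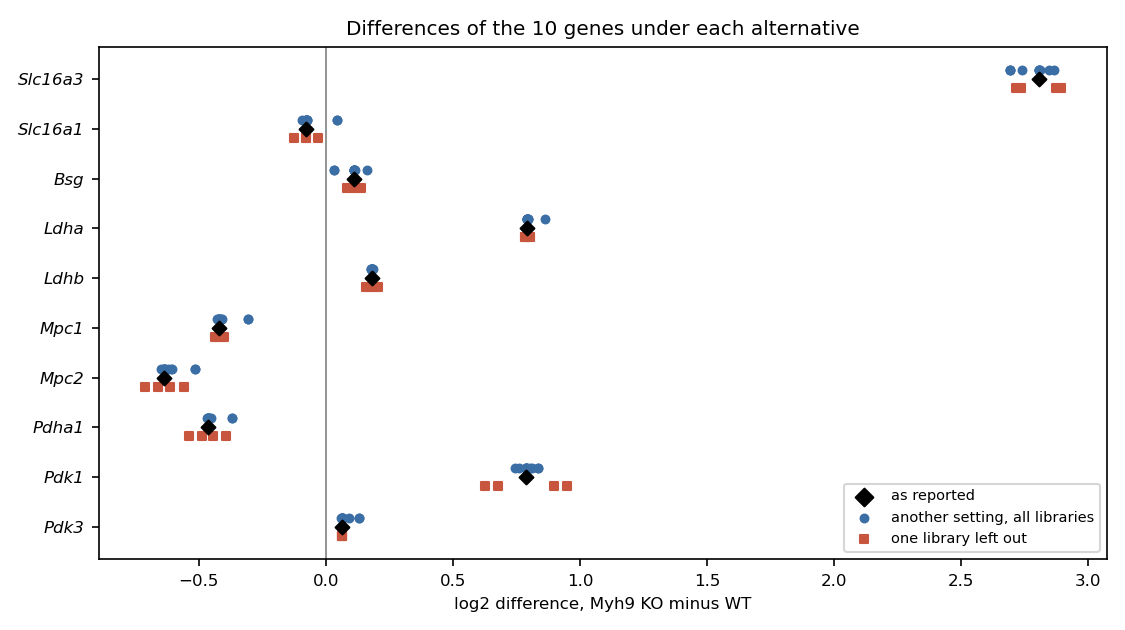
Log2 difference, Myh9 KO minus WT (x axis), of the 10 genes as reported (diamonds), under other settings with all libraries (circles) and with 1 library left out (squares). Slc16a1 crosses 0, from -0.13 to 0.04, and the other 9 genes kept their sign.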

How the data were processed

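Poly(A) RNA-seq was deposited as 1 table with a value per gene for 2 WT and 2 Myh9 KO libraries. The deposited values, treated as a score, were whole numbers with nearly equal library totals, which read counts would not have; their normalization is not given in the sources used here. Bowtie2 2.2.5, RSEM 1.3.0 and bcl2fastq, and the builds mm10 and hg38, are listed, with no role stated, per the submitters' processing notes. Of 50600 identifiers, 50376 were found in GENCODE vM21 (mm10), 92.91% with the same coordinates.

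A gene was tested where its values averaged 1 or more (11231 genes) with limma-trend 3.58.1 in R 4.3.3 on log2(value + 1), with no replicate block and Benjamini-Hochberg adjustment over all of them. The second fit added a uniform number between 0 and 1 to each value before the log (median adjusted p over 25 draws). Unless random decimals are named, an adjusted p is limma's, and where 1 library is left out it is the larger of the 2 fits. Fitted differences, SE and 95% intervals have n = 2 per group. The code was tested on simulated data. Named genes were the 10 genes, called genes of the functional lists (up to 8 per list) and those at 0, Myh9, markers, and the 5 genes nearest to Slc16a3; other list genes were named after their values were seen. The 10 genes and the lists were chosen with earlier results of these data known. GC content and length are those of the longest GENCODE transcript. Overlaps with genes on the other strand are given because the protocol in the labels describes no step that marks the strand. Promoters are from RefSeq.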

Additional observations from a re-analysis of the deposited data

How the results depend on the processing

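Each of the 10 differences was recomputed under 15 alternatives (150 values). Of these, 117 kept their direction and their side of the threshold (for Slc16a3, which has no test, stayed within the spread between replicates), 22 of Ldha, Ldhb, Mpc1 and Mpc2 lost the call, 9 of Pdha1 and Pdk1 gained it, and 2 of Slc16a1 turned positive (0.0438 once the trend on GC content and length was taken out, with or without the replicate block). The cause of these changes was not tested, except that leaving out a library leaves 3.

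Over the whole table, 575 genes were higher and 651 lower. The counts were 962 and 1009 with trimmed-mean scaling, 1149 and 1279 after GC and length correction, 919 and 1011 with that and the replicate block, 1239 and 1339 with random decimals alone, and from 135 to 334 and from 195 to 395 with 1 library left out. Among the 9 tested members, 1 instead of 2 was higher with a pseudocount of 0.5, with no filter, with robust eBayes and with any 1 library left out, and 1 was lower with robust eBayes. There were 3 higher and 3 lower with trimmed-mean scaling, after GC and length correction and with random decimals alone. With 1 library left out limma and the second fit called 0 lower in each case (1 to 4 at an unadjusted limma p under 0.05). Of the wider genes, 10 were higher and 7 lower with trimmed-mean scaling, 12 and 7 after GC and length correction, 11 and 9 with random decimals alone, 2 higher with robust eBayes, 3 higher without chromosomes 6 and 8, 10 higher with that correction and the replicate block, and 1 to 2 higher and 0 to 2 lower with 1 library left out.

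The correlation of deviations of same-numbered libraries was 0.041 over tested genes. With 2 libraries per group this cannot show whether same-numbered libraries were prepared together. With the replicate block limma called 10 genes higher and 44 lower, 0 of the 9 members and 0 of the wider genes (at an unadjusted p under 0.05 there were 2 higher and 3 lower members, and 10 higher and 11 lower wider genes). Without a known depth, small differences such as those of Slc16a1 and Pdk3 cannot be set against a counting error.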
